A study of Arabidopsis thaliana with 12 samples.

Results

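Cysteine-rich receptor-like kinases (CRKs) are a plant family of membrane receptors, and their transcripts were followed here in *Arabidopsis* shoot apical meristems (SAMs) after activation of the homeodomain transcription factor WUSCHEL (WUS). The members came from a list of 42 CRK loci, and a locus was kept where the array's gene table or a table of the study paired it with a probe set, the group of short probes that reads 1 transcript. Of the 42 loci, 2 could be followed in this way, *CRK28* (AT4G21400) and *CRK29* (AT4G21410), each with 1 probe set, out of 22588 loci or unnamed probe sets tested in all. The other 40 were not analysed here, so nothing below describes the family as a whole. In the tables used, of which the study's longest were held only in part, both loci were paired with their probe sets by 1 list alone, that of genes lower with Dex and Cyc than with Cyc. That list was made from these same arrays. The comparison of those treatments is therefore a description, and nothing is read from the calls of the fit there.

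A CRK carries an extracellular region with the cysteine motif of the DUF26 domain, a membrane-spanning segment and an intracellular serine/threonine kinase. The family is known mainly from immunity and from responses to reactive oxygen species, many members being induced by pathogens, by salicylic acid or by bacterial flagellin. CRK28 is known as a partner of BAK1, the co-receptor of several pattern recognition receptors. *CRK28* and *CRK29* are direct neighbours on chromosome 4, and their annotated bounds overlap in RefSeq's TAIR10.1 annotation. Where the probes lie within them is not given in the sources used here, and whether a probe set of one gene also reads the other was not tested.

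Of the 42 listed loci 37 lie on chromosome 4, 3 on chromosome 1 and 1 each on chromosomes 3 and 5. The largest block is a run of 20 neighbouring loci, AT4G23130 (*CRK5*) to AT4G23320 (*CRK24*). Smaller blocks of 6 and 5 loci lie between AT4G11460 (*CRK30*) and AT4G11530 (*CRK34*) and between AT4G04490 (*CRK36*) and AT4G04570 (*CRK40*). AT4G11500, in the block of 6, is annotated as a transcribed pseudogene, and the other 41 loci as protein-coding. *CRK2* and *CRK3* (AT1G70520 and AT1G70530) form a pair like that of *CRK28* and *CRK29*, and 7 loci stand alone, among them AT4G21230 (*CRK27*). No level is given here for any of these loci other than *CRK28* and *CRK29*.

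RNA was hybridized to 12 Affymetrix ATH1 arrays, 3 for each of 4 treatments of SAMs from plants about 28 days old, for 4 h. The SAMs received 10 µM dexamethasone with 10 µM cycloheximide (Dex+Cyc), 10 µM cycloheximide alone (Cyc), 10 µM dexamethasone alone (Dex) or mock solution. All plants, the mock-treated ones included, carried *35S::WUS-GR* in the double mutant *ap1-1;cal1-1*, whose apices overproliferate as inflorescence meristems. In *35S::WUS-GR* a promoter active in nearly all cells drives WUS fused to the steroid-binding domain of the rat glucocorticoid receptor, so that WUS enters the nucleus when Dex is given, also in cells that normally lack it. Cyc blocks protein synthesis, and a gene that responds to Dex in its presence can do so without a newly made intermediate protein. RNA was pooled over many plants per treatment, and the labels do not say whether the 3 samples of a group came from separate plants. The study describes the treatments with Cyc as experiments independent of those without it, so that in any comparison of arrays with and without Cyc the drug and the experiment may not be told apart. The p-values reflect the scatter among 3 samples of a group, which may be technical. No Dex-treated plants without the transgene were analysed here, so that Dex as such and WUS cannot be told apart.

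Levels are given as MAS5 signals, the linear brightness of a probe set after all arrays were brought to one trimmed mean. Array medians were 224 to 236 in Dex+Cyc, 218 to 222 in Cyc, 212 to 220 in Dex and 213 to 226 in mock. *CLV3*, the stem cell peptide gene that WUS activates, averaged 912 ± 157 in Dex and 85.9 ± 37.2 in mock (SD, n = 3 each). Of 19 marker genes for meristem, green leaf, vasculature and root, 5 had a probe set, and the root list had none. For the meristem, *UFO* averaged 418 ± 33.1 in Cyc and 479 ± 33.1 in mock (SD, n = 3 each). It averaged 252 ± 85.3 in Dex (log2 -0.99 relative to mock, adjusted p = 0.0422 from limma). In Dex+Cyc it averaged 181 ± 22 (log2 -1.21 relative to Cyc, adjusted p = 0.0406 from limma). *KNAT1* averaged 1480 ± 171 in Cyc and 2860 ± 399 in mock (log2 -0.95). In Dex *KNAT1* averaged 836 ± 96.5 (log2 -1.77 relative to mock). Its locus was named only by the study's lists of changed genes, made from these same arrays. The values of *KNAT1* are therefore a description, given without a p-value. The leaf gene *RCA* averaged 1810 ± 207 in Cyc and 2750 ± 110 in mock, and the xylem gene *IRX3* averaged 61.0 ± 2.71 in Cyc and 100 ± 15.5 in mock (SD, n = 3 each). These differences were log2 -0.61 and -0.71 (adjusted p = 0.00228 and 0.00432 from limma). Like that of *KNAT1* in Cyc, they were under 2-fold and for that reason not called. In Dex+Cyc relative to Cyc the log2 fold change was 2.53 for *CLV3*, -1.59 for *KNAT1*, 0.16 for *RCA* and -0.16 for *IRX3*. The part of the marker shifts in the results was not tested. A locus was called where limma gave an adjusted p under 0.01 (Benjamini-Hochberg over all loci) and the change was 2-fold or more. Fold changes are given as log2 with their standard error (SE).

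Both CRK transcripts had higher signals in Cyc than in mock. *CRK28* gave signals of 771, 654 and 705 on the 3 Cyc arrays, against 108, 130 and 112 on the 3 mock arrays. *CRK29* gave 366, 564 and 491 on the Cyc arrays, against 139, 105 and 135 on the mock arrays. In both genes every Cyc array lay above every mock array, with no overlap, and the Cyc arrays of *CRK29* were more scattered than those of *CRK28*. The means were 710 ± 58.9 in Cyc and 116 ± 11.7 in mock for *CRK28*, and 473 ± 100 in Cyc and 126 ± 18.3 in mock for *CRK29* (SD, n = 3 each).

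*CRK28* was 6.11-fold higher in Cyc than in mock, or 2.61 on the log2 scale (SE 0.14), and *CRK29* 3.72-fold, or 1.89 (SE 0.25). A list of genes lower in Dex+Cyc than in Cyc favours genes that are high on the Cyc arrays, and the same 3 Cyc arrays enter here. The sizes are therefore a description, given without a p-value. In the fit 2 of the 2 loci were called higher, where 8.31% of all loci were called higher and 7.32% lower, and the arrays of both did not overlap, as at 18.2% of all loci in this direction. Nothing about the CRK loci is read from these counts. In RNA of whole apices, a change in the number of cells that express a gene and a change in RNA per cell cannot be told apart.

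**Figure D1:**
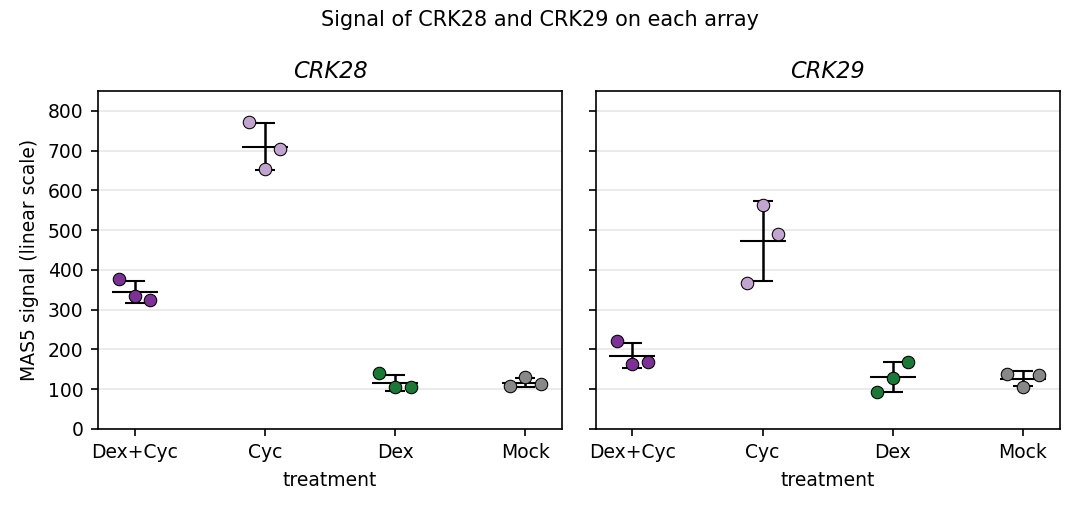
MAS5 signal (linear scale) of *CRK28* and *CRK29* on each of the 12 arrays in Dex+Cyc, Cyc, Dex and mock; points are arrays, horizontal lines are means and bars are SD (n = 3). The 3 Cyc arrays are highest in both genes (654 to 771 and 366 to 564), the Dex+Cyc arrays lie between 323 and 376 for *CRK28* and between 164 and 221 for *CRK29*, and the Dex and mock arrays overlap at 169 and below.

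No change of either gene was detected when WUS was activated without Cyc. *CRK28* gave 140, 104 and 104 on the Dex arrays, against 108, 130 and 112 on the mock arrays. *CRK29* gave 92.3, 129 and 169 on the Dex arrays, against 139, 105 and 135 on the mock arrays. The groups overlapped in both genes, and the Dex arrays were the more scattered ones. The log2 fold change of *CRK28* was -0.01 (SE 0.14, adjusted p = 0.973 from limma), with a 95% interval from 0.790-fold to 1.24-fold. That of *CRK29* was 0.01 (SE 0.25, adjusted p = 0.989 from limma), with a 95% interval from 0.683-fold to 1.48-fold. A 2-fold change in either direction lies outside both intervals, while a change within the bounds of an interval is not excluded for that gene. In limma 0 of the 2 loci passed and 0 had an unadjusted p under 0.05, whereas 0.452% of all loci were called higher, 0.730% were called lower, and 19.3% had an unadjusted p under 0.05. The means compared here use none of the arrays on which the 2 genes were listed, but the SE pools the spread of all 12. In a fit of the compared arrays alone it was 0.17 for *CRK28* and 0.26 for *CRK29*, and 0 loci of the pair were called.

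With protein synthesis blocked, the signals with Dex were lower. *CRK28* gave 376, 333 and 323 on the Dex+Cyc arrays, against 771, 654 and 705 on the Cyc arrays. *CRK29* gave 221, 164 and 168 on the Dex+Cyc arrays, against 366, 564 and 491 on the Cyc arrays. Every Dex+Cyc array lay below every Cyc array in both genes, as at 9.64% of all loci. The means were 344 ± 28.3 in Dex+Cyc and 710 ± 58.9 in Cyc for *CRK28*, and 184 ± 31.6 in Dex+Cyc and 473 ± 100 in Cyc for *CRK29* (SD, n = 3 each). The log2 fold changes were -1.05 for *CRK28* (SE 0.14) and -1.35 for *CRK29* (SE 0.25). A more negative value was found at 5.79% and 3.42% of all loci. In limma 0 of the 2 loci passed both thresholds and 2 had an unadjusted p under 0.05, where 0.0930% of all loci were called lower and 13.8% had an unadjusted p under 0.05. Since the study listed these 2 genes for this very difference, nothing is read from that count.

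**Figure D2:**
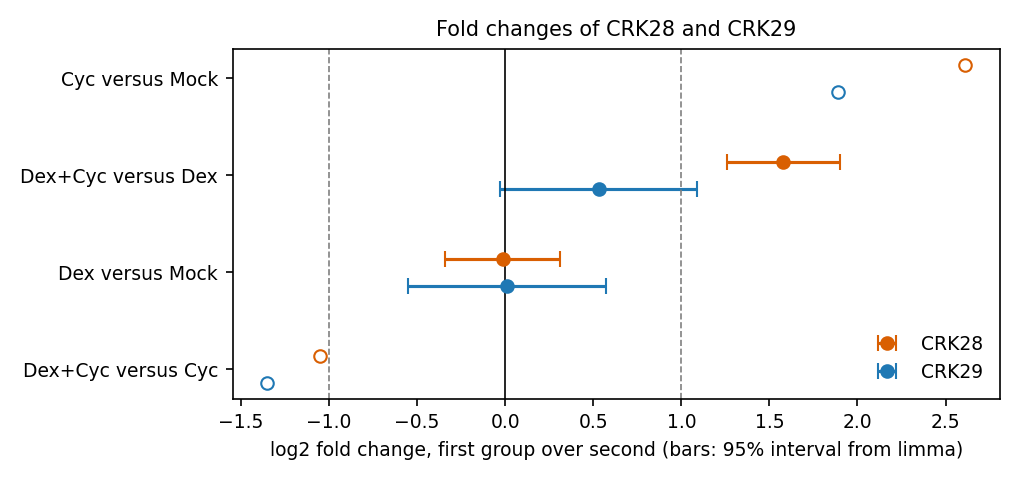
log2 fold changes of *CRK28* and *CRK29* (first group over second) in 4 comparisons, with 95% intervals from limma; dashed lines mark a 2-fold change, and the open points of Cyc versus mock and Dex+Cyc versus Cyc have no interval because the genes were listed on the Cyc arrays. Both genes lie to the right in Cyc versus mock (2.61 and 1.89) and at 0 in Dex versus mock, and only *CRK28* has an interval wholly above 0 in Dex+Cyc versus Dex. The Dex+Cyc arrays were part of the same listing, as the lower group.

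The effect of Cyc could also be read while WUS was active. *CRK28* gave 376, 333 and 323 on the Dex+Cyc arrays, against 140, 104 and 104 on the Dex arrays, with no overlap. It rose 2.99-fold, or 1.58 on the log2 scale (SE 0.14, 95% interval 1.26 to 1.90, adjusted p = 2.94e-05 from limma). *CRK29* gave 221, 164 and 168 on the Dex+Cyc arrays, against 92.3, 129 and 169 on the Dex arrays, so that 1 Dex array lay within the Dex+Cyc range. Its log2 fold change was 0.53 (SE 0.25, 95% interval -0.03 to 1.09, adjusted p = 0.123 from limma), and it did not pass. Hence 1 of the 2 loci was called higher, against 8.52% of all loci, and 1 had all Dex+Cyc arrays above all Dex arrays, against 19.8%. The 2 comparisons of Cyc have no array in common, but the Dex+Cyc arrays are among those on which the genes were listed, there as the lower group. Such a list favours genes that are low on the Dex+Cyc arrays, which works against a rise here. That *CRK29* did not pass is therefore not read as the lack of a rise, and nothing is read from the counts.

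In both genes the highest mean was in Cyc and the next in Dex+Cyc, and the Dex and mock means differed by less than their SD. For *CRK29* the Dex+Cyc mean was not separated from the Dex mean by the test, while for *CRK28* the neighbouring groups Cyc, Dex+Cyc and Dex did not overlap. The genes were listed on the Cyc and Dex+Cyc arrays, so this order is a description. *CRK28* stood at or above 76.6% of all loci in Cyc, 58.0% in Dex+Cyc, 41.7% in Dex and 41.3% in mock. *CRK29* stood at or above 66.7% in Cyc, 46.0% in Dex+Cyc, 42.8% in Dex and 42.2% in mock.

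The change with Dex in the presence of Cyc minus that in its absence was -1.03 for *CRK28* (SE 0.20) and -1.36 for *CRK29* (SE 0.35) on the log2 scale. Since the change with Dex alone was near 0, these values largely restate those of Dex+Cyc relative to Cyc, for which the genes were listed, and they are given without a test.

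The 2 neighbours were also compared with each other, array by array, as the log2 signal of *CRK28* minus that of *CRK29*. This difference changed by 1.05 in Dex+Cyc relative to Dex (SE 0.39), by 0.72 in Cyc relative to mock (SE 0.33), by 0.31 in Dex+Cyc relative to Cyc (SE 0.26) and by -0.02 in Dex relative to mock (SE 0.44). In Dex+Cyc relative to Dex the arrays did not overlap, at 0.77 to 1.03 in Dex+Cyc and -0.70 to 0.60 in Dex. An exact two-sided permutation test gave p = 0.1 there, the smallest that 3 against 3 arrays allow, p = 0.2 in Cyc relative to mock and p = 0.9 in Dex relative to mock (0.4, 0.4 and 0.9 when adjusted over all 4 comparisons computed). The comparison of Dex+Cyc with Cyc is left without a test. Since this test could not have passed, it does not show whether the responses of *CRK28* and *CRK29* differ.

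Around the pair, 4 of the 10 nearest protein-coding genes had a named probe set, and these neighbours were looked up after the values of the pair were seen. *B120* (AT4G21390), an S-domain receptor-like kinase gene next to *CRK28*, gave 4600, 6680 and 6440 in Cyc, against 21.7, 9.55 and 15.9 in mock (log2 fold change 8.61, adjusted p = 5.06e-07 from limma). Its mock signals were dim, which leaves the size of that rise uncertain. *B160*, on the other side of the pair, had a log2 fold change of -0.05 in Cyc relative to mock, *AT4G21450* had -0.43 and *AT4G21340*, which was dim throughout, had 0.24. *B120* gave 4720, 4890 and 4480 in Dex+Cyc, which is -0.31 on the log2 scale relative to Cyc, where *CRK28* and *CRK29* had -1.05 and -1.35.

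Genes to set beside the CRKs were taken from lists of DUF26 relatives without a kinase domain, pattern recognition and the oxidative burst, salicylic acid defence, meristem and organ receptors, and wall-associated kinases. Of their 51 genes 8 had a named probe set. In Cyc relative to mock, 5 of the 8 rose and 0 fell at both thresholds, where 8.31% of all loci were called higher and 7.32% lower. The lists were chosen with earlier results of these data known. *PDLP2* and *BAM1*, among the 8, were named only by the study's lists of changed genes. Nothing is therefore read from this count. Of the 2 measured genes of pattern recognition, *BIK1*, a cytoplasmic kinase that relays signals from immune receptors to the oxidase of the oxidative burst, averaged 2660 ± 378 in Cyc and 609 ± 60.7 in mock (SD, n = 3 each). It rose by 2.12 on the log2 scale (SE 0.17, adjusted p = 1.2e-05 from limma). *EFR*, the receptor of bacterial elongation factor Tu, averaged 180 ± 54.6 in Cyc and 54.8 ± 22.5 in mock and rose by 1.75 (SE 0.39, adjusted p = 0.00535). *SAG101*, a partner of EDS1 in immune signaling, rose by 2.34 (SE 0.15, adjusted p = 2.88e-06).

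Of the DUF26 list 2 of the 3 measured loci rose, AT5G48540 by 4.91 on the log2 scale (SE 0.13, adjusted p = 7.3e-08 from limma) and AT3G22060 by 4.72 (SE 1.01, adjusted p = 0.00448). AT3G22060 was dim in mock (13 ± 3.98) and in Dex (20.4 ± 16.5), which leaves the size of its changes uncertain (SD, n = 3 each). *PDLP2*, of the plasmodesmata-located proteins, had a log2 fold change of -0.61. Its locus, like that of *BAM1*, was named only by the study's lists of changed genes. Those lists were made from these same arrays, so the values of both genes are given without a p-value. The receptor genes of meristem and organ growth did not pass both thresholds. *BAM1*, a relative of the CLAVATA1 receptor, had a log2 fold change of 0.47. *ACR4*, an epidermal receptor kinase, had -0.87 (adjusted p = 0.00312 from limma, but under 2-fold). In Dex+Cyc relative to Dex 5 of the 8 rose, where 8.52% of all loci were called higher. The rises were 2.15 for *BIK1*, 2.00 for *EFR*, 2.58 for *SAG101*, 4.15 for AT5G48540 and 1.08 for *BAM1*, while AT3G22060 had 3.72 (adjusted p = 0.0158 from limma). The rise of *BAM1* is only a description, since the lists that named it were made from these same arrays. It is part of the count of 5, and nothing is read from that count. *BAM1* averaged 2030 ± 34.1 in Dex and 3560 ± 469 in mock (SD, n = 3 each).

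In the comparisons of Dex, 0 of the 8 genes passed in limma, with or without Cyc. So few loci were called there (0.0930% lower in Dex+Cyc relative to Cyc, and 0.452% higher and 0.730% lower in Dex relative to mock) that a count of 0 among 8 says little about these genes. In Dex+Cyc relative to Cyc the log2 fold change was -1.23 for AT3G22060 (adjusted p = 0.676 from limma), -0.66 for *PDLP2*, -0.62 for AT5G48540 (adjusted p = 0.0575), and -0.56 for *BIK1* (adjusted p = 0.167). It was -0.33 for *EFR* (adjusted p = 0.797), -0.21 for *BAM1* and 0.28 for each of *SAG101* (adjusted p = 0.474) and *ACR4* (adjusted p = 0.55). In Dex relative to mock the most negative values were those of *PDLP2*, at -1.09, and *BAM1*, at -0.81. Both loci were named only by the study's lists of changed genes, made from these same arrays. Their values in the comparisons of Dex are therefore given without a p-value, and nothing is read from their rank. *BIK1* and *EFR* had -0.58 each (adjusted p = 0.0891 and 0.486), AT3G22060 had -0.23, AT5G48540 had 0.13, *ACR4* had 0.08 and *SAG101* had 0.04.

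**Figure D3:**
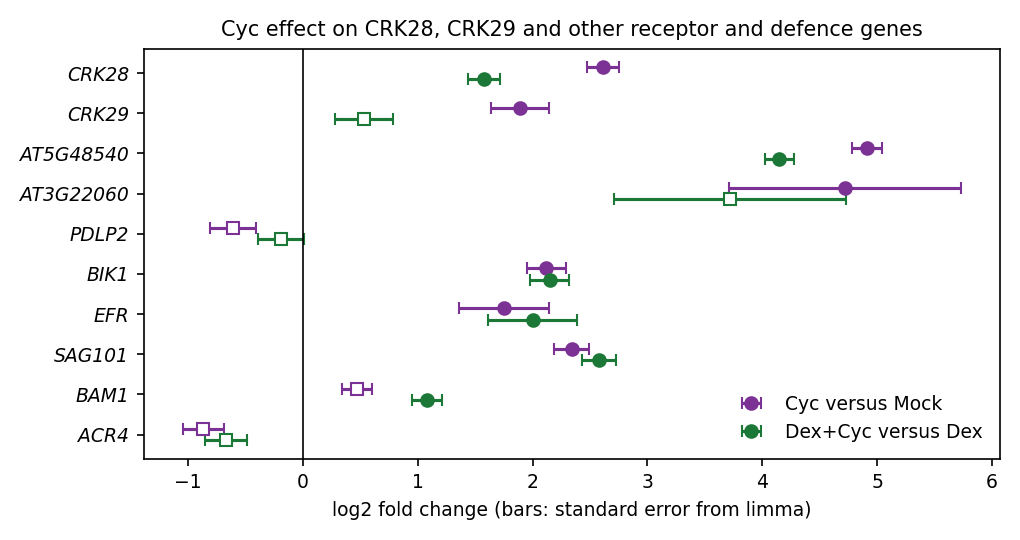
log2 fold changes with standard errors from limma for *CRK28*, *CRK29* and 8 other receptor and defence genes, in Cyc versus mock (purple) and Dex+Cyc versus Dex (green); filled circles passed both thresholds and open squares did not. Of the 8 other genes, AT5G48540, *BIK1*, *EFR* and *SAG101* passed in both comparisons, and *PDLP2* and *ACR4* lie on the lower side of 0 in both. The marks of *CRK28* and *CRK29* in Cyc versus mock rest on the Cyc arrays on which they were listed. Their marks in Dex+Cyc versus Dex rest on the Dex+Cyc arrays of the same listing. *BAM1* and *PDLP2* were named only by the study's lists of changed genes, made from these same arrays.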

How the data were processed

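The authors deposited 1 intensity per probe set and array, the linear MAS5 signal. On every array the mean signal was 500 once 2% of the values had been trimmed from either end. MAS5 and affy are named in the submitters' processing notes (versions not given in the sources used here). Detection calls were not used. The authors ran their test on GCRMA values, not analysed here, which can differ for dim genes. Of 22810 probe sets, 64 controls were left out. Loci came from the platform table and the study's supplementary tables (14557 probe sets), and the probe set with the highest mean was kept per locus. None of the 42 CRK loci was in the platform table. The log2 signals, with no added value and no filter, were fitted in limma 3.58.1 (R 4.3.3) with 4 group means and eBayes (1.34 prior degrees of freedom). The fit was tested on simulated data. Levels are means ± SD of 3 arrays, and the number of arrays limits the precision. No 2 arrays shared an identical value. The members and lists were chosen with earlier results of these data known. Named were all members with a probe set, *CLV3*, and at most 3 genes per list and comparison with the smallest adjusted p. Alternatives were quantile normalization, log2(value + 32), leaving out the dimmest 40%, the replicate number as a block, fits of the compared arrays alone, robust shrinkage with a variance trend, all probe sets, and each array left out in turn. Figures were drawn with matplotlib 3.10.9 in Python 3.11.15.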

Additional observations from a re-analysis of the deposited data

How the results depend on the processing

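Both CRK loci were called in Cyc versus mock, 1 in Dex+Cyc versus Dex, and 0 in Dex versus mock, under every alternative run, each array left out in turn included. The calls in Cyc versus mock carry no weight, since the genes were listed on the same Cyc arrays. The Dex+Cyc arrays were part of that listing as well, as the lower group. In Dex+Cyc versus Cyc, for which the genes were listed and whose calls carry no weight here, the count of 0 became 1 with quantile normalization (*CRK28*), 1 with log2(value + 32) (*CRK29*), and 2 without the dimmest 40% of probe sets and with a variance trend and robust shrinkage, while it was 0 without each array. The fewer loci tested are part of the third of these settings, and the cause of the others was not tested. Over all alternatives, the log2 fold change in Cyc versus mock ran from 2.32 to 2.69 for *CRK28* and from 1.66 to 2.07 for *CRK29*. That of *CRK29* in Dex+Cyc versus Dex ran from 0.31 to 0.74 (adjusted p 0.0466 to 0.369). In Dex versus mock the values near 0 changed sign: *CRK28* had 0.03 with quantile normalization and -0.16 to 0.07 without 1 array, and *CRK29* -0.20 to 0.24 without 1 array. The deviations of same-numbered arrays from their group means had correlations of -0.01 to 0.05 over loci. As 10 of 12 arrays correlated best with their own number, a shared deviation may be present but was weak. With the replicate number as a block, 2 loci were called in Cyc versus mock, 1 in Dex+Cyc versus Dex and 0 in the other pairwise comparisons. The median log2 fold change of all loci in Cyc versus mock was -0.18 as deposited and -0.23 with quantile normalization, so the positive values of *CRK28* and *CRK29* stand above a small general shift downward. The mock levels of *CRK28* and *CRK29* stood at or above 41.3% and 42.2% of all loci, and how far they exceed background was not tested.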
